A study of Mus musculus with 24 samples.

Results

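The genes described here encode receptors of the interleukin-6 and oncostatin M family, the kinase, transcription factor and inhibitor that act behind them, and 3 further cytokine receptors. They are Il6st, Lifr, Osmr, Il6ra, Il10ra, Il4ra, Tnfrsf1a, Jak1, Stat3 and Socs3, 10 of the 24062 genes in the counts table, taken by symbol. All 10 passed the filter on low counts and are among the 16313 genes tested. Counts came from 24 libraries of hippocampal RNA from mice of the C57BL/6 background, with 6 WT stress, 7 WT control, 5 KO stress and 6 KO control libraries. Stress was social defeat by paired fighting, per the series' title. KO mice carry the IL-1R1 knockout, which the title describes as neuronal. The driver of the deletion, the sex and the age of the mice are not given in the labels used here. Whether replicates were different mice is not stated either, and p-values here cover only the spread between samples, which may be technical in part.

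Gp130, the product of Il6st, is the signalling chain shared by receptors for interleukin-6, leukaemia inhibitory factor, oncostatin M and related cytokines. It acts with Il6ra, the binding chain for interleukin-6, or pairs with Lifr or Osmr. Binding activates JAK kinases, which phosphorylate STAT3, and STAT3 induces its own feedback inhibitor Socs3. Il10ra also signals through STAT3, Il4ra mainly through STAT6, and Tnfrsf1a, the type 1 receptor for tumour necrosis factor, mainly through NF-kB. In brain these receptors are carried by endothelial cells, astrocytes, microglia and some neurons, and the pathway is known for driving acute-phase and reactive glial programmes.

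Total counts ran from 25711872 to 35148198 per library. Il1r1, the targeted gene, averaged 5.56 ± 1.45 CPM (counts relative to the library total, scaled by TMM factors) in WT stress, 3.35 ± 1.31 in WT controls, 5.54 ± 1.77 in KO stress and 3.44 ± 1.21 in KO controls (SD, n = 6, 7, 5 and 6). The KO and WT levels were alike, and since neuronal deletion leaves the gene in other cells and the deleted exons are not given, they do not check the genotype labels. All 12 hippocampal neuron markers were detected, with a summed level of 3951 to 9076 CPM over all libraries. By the level of Rn45s, a ribosomal RNA precursor, the libraries formed a set of 13 with 4107 to 8786 CPM (set 2) and a set of 11 with 24238 to 50453 CPM (set 1). The sets were found in the counts and are not named in the labels, so stress effects are given within them as well. Within each group the libraries of set 1 had the lower replicate numbers. Set 2 held 4 WT stress, 4 WT control, 3 KO stress and 2 KO control libraries, and set 1 held 2, 3, 2 and 4. Of 16313 genes, 20.8% differed between set 2 and set 1 in the edgeR test with group means in the model (11.2% higher and 9.56% lower in set 2). None of the 10 did (adjusted p from 0.0725 for Il4ra to 0.680 for Il6st), though 3 had an unadjusted p under 0.05, namely Il4ra, Tnfrsf1a and Jak1. The share of all genes at that unadjusted level was not counted, and it is at least the 20.8% called after adjustment. The set test was run with edgeR only.

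Promoters of 3 members are shown, those of the only members whose window held a STAT recognition motif and that of the member with the largest stress difference in WT mice. RefSeq sequences (GRCm38.p6, the assembly of mm10) were at hand for 9 of the 10 members. Each window runs from 250 bases before to 50 bases after a RefSeq gene start, and Lifr has a pair of windows. The motif searched was TTCNNNGAA, which reads the same on both strands, and capitals mark its matches. The first window is chr6:125349473-125349772 (plus strand), the next chr11:117969317-117969616 (minus strand) and the last chr15:6874264-6874563 (minus strand). Each is printed 5′ to 3′ on the strand of its gene.
Tnfrsf1a: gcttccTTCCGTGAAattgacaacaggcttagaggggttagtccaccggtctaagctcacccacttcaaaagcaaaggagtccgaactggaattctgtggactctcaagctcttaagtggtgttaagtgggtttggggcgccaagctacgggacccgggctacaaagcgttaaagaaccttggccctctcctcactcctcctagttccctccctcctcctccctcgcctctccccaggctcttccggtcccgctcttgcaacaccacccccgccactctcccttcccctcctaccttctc
Socs3: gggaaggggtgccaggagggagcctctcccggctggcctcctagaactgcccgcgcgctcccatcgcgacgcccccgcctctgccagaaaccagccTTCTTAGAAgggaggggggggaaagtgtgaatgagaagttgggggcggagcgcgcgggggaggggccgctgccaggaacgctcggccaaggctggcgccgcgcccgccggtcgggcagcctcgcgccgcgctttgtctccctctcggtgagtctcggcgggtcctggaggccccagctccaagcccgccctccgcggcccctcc
Osmr: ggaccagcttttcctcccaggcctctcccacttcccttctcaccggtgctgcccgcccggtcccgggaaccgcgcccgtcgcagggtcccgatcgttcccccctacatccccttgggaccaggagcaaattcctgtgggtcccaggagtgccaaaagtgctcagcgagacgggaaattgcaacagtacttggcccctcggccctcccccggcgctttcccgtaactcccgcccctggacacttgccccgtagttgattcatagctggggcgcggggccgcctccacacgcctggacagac
Tnfrsf1a had 1 match, TTCCGTGAA, whose first base lies at position -244 from the gene start. Socs3 had 1 match, TTCTTAGAA, at position -154. None of the other 8 windows of members held these letters, which says nothing of binding elsewhere. Of all 32851 RefSeq promoter windows of this length, 8.3% held the motif. A match is a description of the sequence and not a site of binding.

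Levels per length differed widely among the members. RPKM (CPM divided by the length of the merged exons in kilobases) put Jak1 first, with a mean of 13.6 ± 1.01 RPKM over all 24 libraries (SD). Tnfrsf1a had 5.54 ± 0.975 RPKM, Stat3 5.15 ± 0.645, Il6st 3.79 ± 0.778 and Lifr 3.30 ± 0.522. Socs3 followed with 1.58 ± 0.363 RPKM, Il10ra with 1.54 ± 0.307, Il4ra with 1.28 ± 0.261, Il6ra with 0.578 ± 0.139 and Osmr with 0.355 ± 0.0990. Jak1 stood apart, with its lowest library at 11.8 RPKM and the highest Tnfrsf1a library at 7.56 RPKM. Tnfrsf1a and Stat3 overlapped in range, as did Stat3 and Il6st, Il6st and Lifr, and all neighbours from Socs3 down to Osmr. Lifr (lowest 2.60 RPKM) and Socs3 (highest 2.11 RPKM) did not overlap. The shared chain Il6st was thus counted at several times the level of the ligand-binding chains Il6ra and Osmr in every group.

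**Figure D1:**
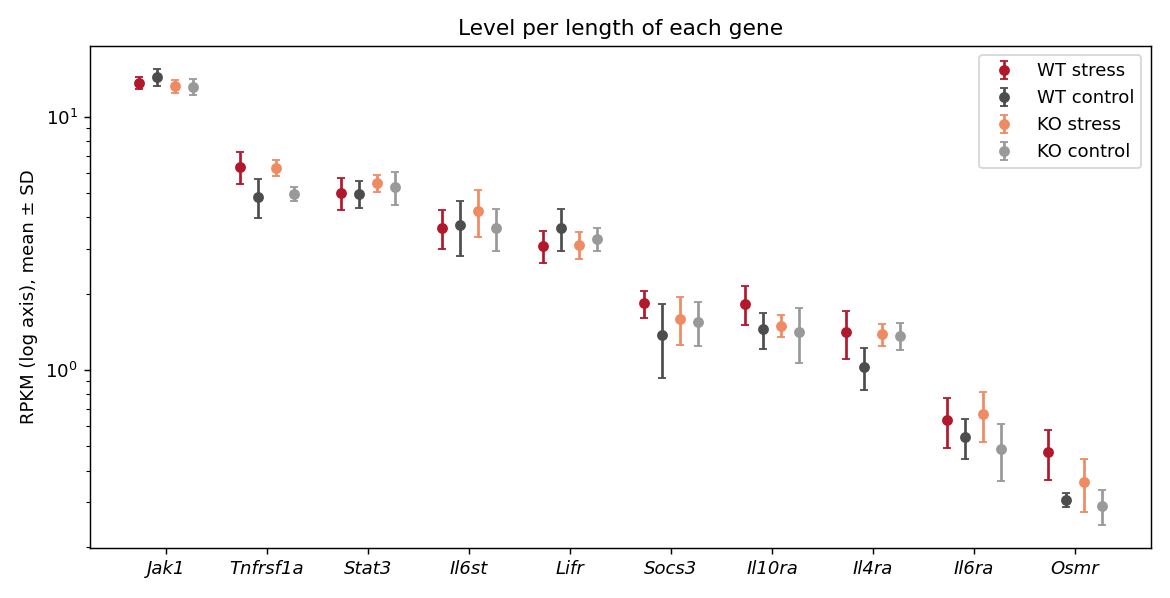
Level of each gene per kilobase of merged exons (RPKM, log axis) as the mean of each group with its SD, for 6 WT stress, 7 WT control, 5 KO stress and 6 KO control libraries. Jak1 is highest at about 13.6 RPKM and Osmr lowest at about 0.355 RPKM over all libraries, and within a gene the groups lie close together.

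Social defeat in WT mice was set against WT controls to ask which receptors respond to stress. Osmr, Il4ra, Socs3, Tnfrsf1a and Il10ra had higher means under stress, whereas Stat3, Il6st and Jak1 had log2 fold changes within 0.08 of 0 and Lifr was lower. In the quasi-likelihood test of edgeR, adjusted over all genes, 0 of the 10 passed in either direction, while 0.135% of all 16313 genes did. At an unadjusted p under 0.05 there were 6 of the 10 members, against 4.41% of all genes. Of these Osmr, Il4ra, Tnfrsf1a, Socs3 and Il10ra were higher and Lifr was lower. The members were chosen with earlier results of these data known, so such shares are no independent support, here or in the comparisons below. DESeq2 called 1 member, Osmr, among 61 genes called of 24062 in the table. Limma voom called 0 members, among 22 genes called of 16313. The median log2 fold change of the 10 was 0.28, with 7 above 0, and that of all genes was −0.0013.

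Osmr, the oncostatin M receptor chain, had the largest difference. It ran from 4.08 through a median of 5.42 to 7.33 CPM in WT stress, and from 3.45 through 3.68 to 4.16 CPM in WT controls. Of the 6 stress libraries, 5 lay above every control, and replicate 2 lay just under the highest control. The means were 5.74 ± 1.29 CPM in WT stress and 3.71 ± 0.243 CPM in WT controls (SD, n = 6 and 7), so the spread was wider under stress. The log2 fold change was 0.63 ± 0.15 (SE), with an adjusted p of 0.142 in edgeR, rank 38 of all genes by p. The adjusted p was 0.0246 in DESeq2 and 0.101 in limma voom. Leaving out WT stress replicate 2 brought the edgeR adjusted p to 0.0491, and without any other single library it did not pass (up to 0.377, without WT stress replicate 6).

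Tnfrsf1a ran from 12.6 through a median of 16.2 to 19.6 CPM in WT stress, and from 9.05 through 11.9 to 16.4 CPM in WT controls. All 6 stress libraries lay above the control median, but WT control replicates 3 and 6 reached into the stress range. The log2 fold change was 0.39 ± 0.11, with an adjusted p of 0.230 in edgeR.

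Il4ra, the chain shared by the interleukin-4 and interleukin-13 receptors, ran from 6.75 through 7.72 to 11.2 CPM in WT stress, and from 4.53 through 6.21 to 7.79 CPM in WT controls. The 3 highest stress libraries, replicates 1, 2 and 5, exceeded all controls and the rest overlapped them (log2 fold change 0.46 ± 0.13, adjusted p = 0.344 in edgeR). A stretch of 571 exon bases of Il4ra lies opposite an antisense gene, Gm44876, and without a stated use of strand the reads of both cannot be told apart there.

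Socs3, the inhibitor that STAT3 induces, ran from 4.25 through 5.37 to 6.11 CPM in WT stress, and from 2.46 through 4.01 to 6.11 CPM in WT controls. Every stress library lay above the control median, yet WT control replicate 3 was level with the highest stress library (log2 fold change 0.42 ± 0.18, adjusted p = 0.9998 in edgeR). Il10ra, the interleukin-10 receptor chain of microglia and other myeloid cells, ran from 4.69 through 6.56 to 7.73 CPM in WT stress, and from 3.66 through 5.17 to 6.05 CPM in WT controls (log2 fold change 0.33 ± 0.15, adjusted p = 0.9998). Here 4 of the 6 stress libraries exceeded all controls, and all 4 belonged to set 2.

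Over all libraries Stat3, Il6st and Jak1 lay near 0, although Stat3 and Il6st went opposite ways in the library sets described further on. Stat3 had 47.7 ± 6.98 CPM in WT stress and 47.3 ± 5.66 CPM in WT controls (log2 fold change 0.012 ± 0.097). Il6st had 40.3 ± 6.97 CPM in WT stress and 41.3 ± 10.1 CPM in WT controls (−0.034 ± 0.16), and Jak1 98.1 ± 5.55 and 104 ± 8.10 CPM in the same order (−0.078 ± 0.060). Il6ra had 5.48 ± 1.23 CPM in WT stress and 4.69 ± 0.841 CPM in WT controls (0.23 ± 0.18). Lifr, the receptor chain for leukaemia inhibitory factor, had 33.2 ± 4.90 CPM in WT stress and 39.1 ± 7.46 CPM in WT controls. Its log2 fold change was −0.23 ± 0.11 (adjusted p = 0.9998), and only 1 of the 6 stress libraries, replicate 2, lay above the control median.

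**Figure D2:**
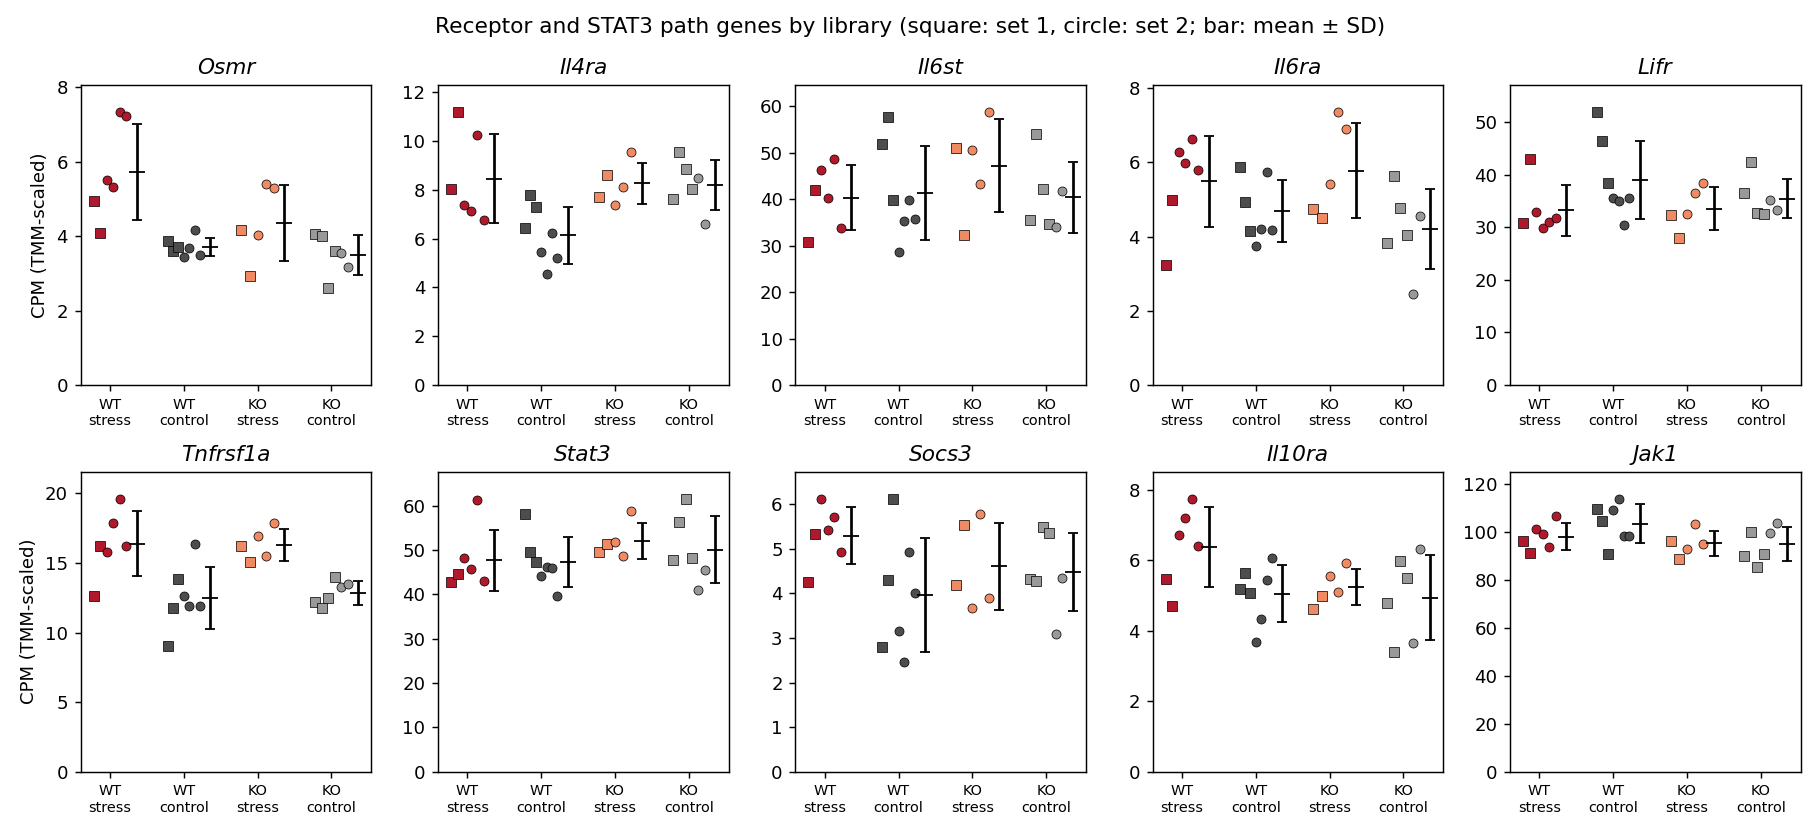
Level of each gene in each library (CPM, TMM-scaled), in the order of replicate numbers within a group, with squares for set 1, circles for set 2 and a bar for the mean ± SD. Osmr lies at 4.08 to 7.33 CPM in WT stress against 3.45 to 4.16 CPM in WT controls, and Tnfrsf1a at 15.0 to 17.9 CPM in KO stress against 11.8 to 13.998 CPM in KO controls.

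In KO mice Il6ra, Tnfrsf1a and Osmr had the largest positive log2 fold changes with stress. None of the 10 passed in edgeR, DESeq2 or limma voom, 2 had an unadjusted p under 0.05 (3.97% of all genes did), and 0.00613% of all genes, which is 1 gene, passed in edgeR. The median log2 fold change of the 10 was 0.070, with 9 above 0, and that of all genes was 0.0052.

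Tnfrsf1a was the member whose KO groups did not overlap. It had 16.2, 15.0, 16.9, 15.5 and 17.9 CPM in KO stress replicates 1 to 5, and ran from 11.8 through 12.9 to 13.998 CPM in KO controls. All 5 stress libraries thus lay above all 6 controls, a pattern that 0.233% of all tested genes had in the same direction. The log2 fold change was 0.34 ± 0.11, with an adjusted p of 0.988 in edgeR (unadjusted p = 0.00639).

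Il6ra had 4.74, 4.49, 5.40, 7.35 and 6.91 CPM in KO stress, and ran from 2.44 through 4.29 to 5.63 CPM in KO controls. Replicates 4 and 5 exceeded every control and the others overlapped them (log2 fold change 0.46 ± 0.20, adjusted p = 0.988 in edgeR). For Il6ra, 242 exon bases lie opposite an antisense gene, Gm42809. Osmr had 4.15, 2.92, 4.03, 5.41 and 5.30 CPM in KO stress, and ran from 2.61 through 3.58 to 4.05 CPM in KO controls. Replicates 1, 4 and 5 exceeded every control, and replicate 2 lay near the lowest one (log2 fold change 0.32 ± 0.17, adjusted p = 0.988).

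Il4ra, Socs3 and Il10ra had values closer to 0 in KO than in WT mice, a difference tested as the interaction. Il4ra had 7.72, 8.62, 7.38, 8.12 and 9.54 CPM in KO stress, within the KO control range of 6.60 to 9.57 CPM (log2 fold change 0.014 ± 0.15). Socs3 had 4.19, 5.52, 3.66, 5.78 and 3.88 CPM in KO stress, and ran from 3.09 through 4.33 to 5.49 CPM in KO controls (0.041 ± 0.20). Il10ra had 5.23 ± 0.511 CPM in KO stress and 4.94 ± 1.21 CPM in KO controls (SD, n = 5 and 6; 0.082 ± 0.17). Stat3, Il6st, Lifr and Jak1 had log2 fold changes of 0.057, 0.23, −0.079 and 0.0047.

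**Figure D3:**
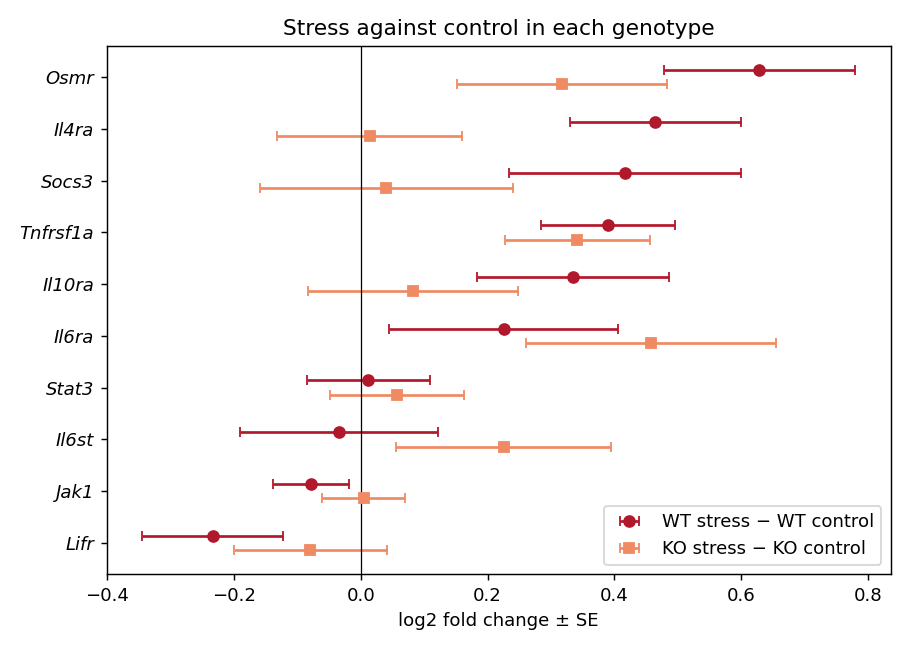
Log2 fold change of stress against control with its SE for each gene, with circles for WT (6 against 7 libraries) and squares for KO mice (5 against 6). Tnfrsf1a lies at 0.39 in WT and 0.34 in KO mice, whereas Il4ra lies at 0.46 and 0.014 and Socs3 at 0.42 and 0.041.

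Whether the effect of stress depended on genotype was tested as an interaction (the effect in KO minus that in WT mice). None of the 10 passed, nor did any of the 16313 genes in edgeR (0% called; 2.35% had an unadjusted p under 0.05, and DESeq2 called 4 genes). DESeq2 and limma voom called 0 of the 10 too. Il4ra had the largest interaction, at −0.45 ± 0.20 on the log2 scale, and was the 1 member with an unadjusted p under 0.05 (0.0331, adjusted p = 0.99999). Socs3 had −0.38 ± 0.27, Osmr −0.31 ± 0.22, Il10ra −0.25 ± 0.22 and Tnfrsf1a −0.048 ± 0.16. Il6st had 0.26 ± 0.23, Il6ra 0.23 ± 0.27 and Lifr 0.15 ± 0.16, and 5 of the 10 lay above 0. A difference of stress response between WT and KO mice was therefore not shown for any member.

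Averaged over genotypes, Tnfrsf1a rose with stress and was the only member that passed in edgeR. Its log2 fold change was 0.37 ± 0.078, a fold of 1.29, with an adjusted p of 0.0394, where 0.208% of all genes were called higher. The adjusted p was 0.00429 in DESeq2 and 0.0195 in limma voom. The call in edgeR lay close to the threshold: it held without WT stress replicate 1, WT control replicate 1, 3 or 6, KO stress replicate 2 or KO control replicate 4. It was lost without any 1 of the other 18 libraries (adjusted p up to 0.115, without WT stress replicate 5). The value itself stayed between 0.33 and 0.40 whichever library was left out. Without the 3 libraries with the most thalamic transcripts (replicate 5 of WT stress, replicates 3 and 5 of KO stress), all of set 2, it was 0.30 (adjusted p = 0.571). Those libraries had thalamic marker sums of 866 CPM, 911 CPM and 686 CPM. The transcripts were not confined to them, since the 11 set 1 libraries had 297 to 638 CPM and the other 10 of set 2 had 115 to 249.6 CPM. With the library set in the model it was 0.34 (adjusted p = 0.0512).

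Osmr had an average of 0.47 ± 0.11 (adjusted p = 0.0873 in edgeR, 0.0180 in DESeq2 and 0.0541 in limma voom). In edgeR it passed without WT stress replicate 2 (adjusted p = 0.0436) or KO stress replicate 2 (0.0206). Il6ra had 0.34 ± 0.13 and Il4ra 0.24 ± 0.099, with adjusted p of 0.666 and 0.707. Those 4 genes, Tnfrsf1a included, were the members with an unadjusted p under 0.05, against 6.17% of all genes. The median of the 10 was 0.22, with 8 above 0, and that of all genes was 0.0011.

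Within the library sets the direction held in both for some members only. For Tnfrsf1a in WT mice the log2 fold change was 0.39 in set 2 and 0.32 in set 1, and in KO mice 0.33 and 0.31. Il4ra in WT mice had 0.56 in set 2 and 0.42 in set 1. In KO mice Il4ra averaged 8.35 CPM in stress and 7.54 CPM in controls in set 2, but 8.17 CPM in stress and 8.52 CPM in controls in set 1. Its value near 0 over all KO libraries thus averages means of opposite direction, but stress and control libraries overlapped in both sets. Whether the stress effect differed between the sets was not tested, for this or any member. Osmr had 0.78 in set 2 (adjusted p = 0.0971) and 0.27 in set 1 in WT mice, and 0.55 and −0.012 in KO mice. In WT mice Socs3 had 0.60 in set 2 and 0.13 in set 1, Il10ra 0.52 and −0.059, and Il6ra 0.46 and −0.28. In KO mice Il6ra averaged 6.55 CPM in stress and 3.49 CPM in 2 controls in set 2, but 4.62 CPM in stress and 4.56 CPM in controls in set 1. The Il6ra stress effect averaged over genotypes was −0.13 in set 1 alone, against 0.34 over all libraries. Il6st in WT mice had 42.3 CPM in stress and 34.8 CPM in controls in set 2 (log2 fold change 0.28), but 36.4 CPM in stress and 49.8 CPM in controls in set 1 (−0.45). Stat3 in WT mice had 49.6 CPM in stress and 44.0 CPM in controls in set 2 (0.17), but 43.8 CPM in stress and 51.6 CPM in controls in set 1 (−0.24). The values of both genes near 0 over all WT libraries thus average opposite signs, a difference between sets that was not tested. In KO mice of set 2 Stat3 had 48.6 to 58.8 CPM in 3 stress libraries and 40.9 to 45.5 CPM in 2 controls (0.30), and Il6st had 0.43. So few libraries can part without any effect of stress, and the share of all genes that did so was not counted. In set 1 of KO mice Stat3 had −0.082 and Il6st 0.0028. No member passed within a set in edgeR, where set 1 holds 2 stress libraries of each genotype. Set 1 alone called 0 of 16569 genes in any comparison, so its lack of calls says nothing of the members. Set 2 alone called 20 of 16548 genes in WT mice, 0 in KO mice and 69 in the average.

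**Figure D4:**
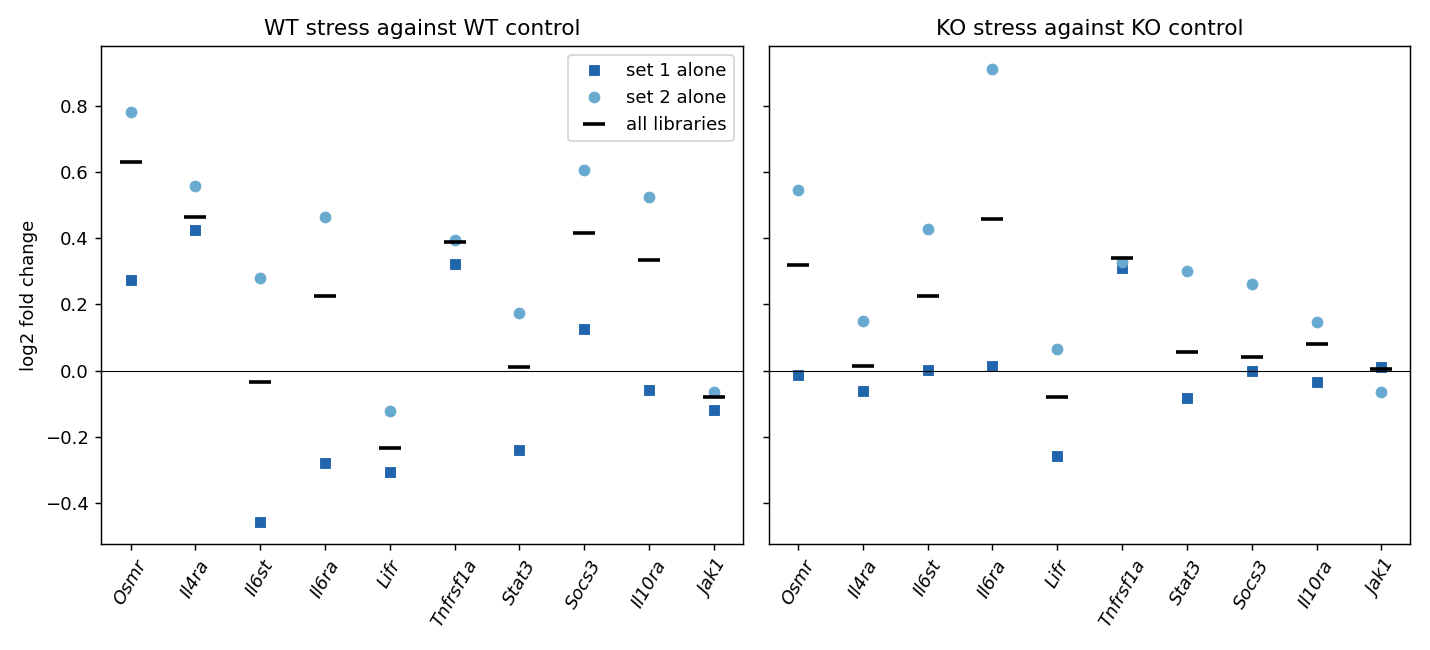
Log2 fold change of stress against control in WT (left) and KO mice (right), with squares for set 1 alone, circles for set 2 alone and lines for all libraries. Tnfrsf1a lies between 0.31 and 0.39 in every fit shown, whereas Il6ra lies at 0.46 in set 2 and −0.28 in set 1 in WT mice.

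Genotype was compared in controls and under stress. In KO controls against WT controls 0 of the 10 passed with edgeR, DESeq2 or limma voom, and in edgeR 0% of all genes did (3.02% at an unadjusted p under 0.05, and 8 genes with DESeq2). Il4ra and Jak1 had an unadjusted p under 0.05. Il4ra ran from 6.60 through 8.26 to 9.57 CPM in KO controls, and from 4.53 through 6.21 to 7.79 CPM in WT controls. All 6 KO controls lay above the WT control median and 4 lay above all WT controls (log2 fold change 0.42 ± 0.13, unadjusted p = 0.00478, adjusted p = 0.9999). Within set 2 the value was 0.49 and within set 1 0.25. Unstressed KO libraries thus held Il4ra at 8.20 ± 1.03 CPM, next to 8.46 ± 1.82 CPM in stressed WT libraries. Jak1 had 95.0 ± 7.16 CPM in KO controls and 104 ± 8.10 CPM in WT controls (−0.12 ± 0.060, adjusted p = 0.9999).

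In KO stress against WT stress 0 of the 10 and 0% of all genes passed in edgeR (4.71% at an unadjusted p under 0.05, and 3 genes with DESeq2), and DESeq2 and limma voom called 0 of the 10. Osmr was the member with an unadjusted p under 0.05, with −0.40 ± 0.16 on the log2 scale (adjusted p = 0.798). All 5 KO stress libraries lay below the WT stress median of 5.42 CPM, and 2 of them, replicates 2 and 3, lay below every WT stress library. Il10ra had −0.29 ± 0.17 and Il6st 0.23 ± 0.17 (adjusted p = 0.798 each). Regional markers differed beside these genes, with none past the threshold: the median log2 fold change was 1.46 for choroid plexus (10 of 10 above 0), 0.94 for thalamus and habenula (12 of 12) and 0.37 for oligodendrocytes (10 of 10). With stress the choroid plexus median was 0.89 in KO mice and −0.61 in WT mice, and 1.41 in the interaction. The choroid plexus sum was 804 to 2070 CPM in KO stress and 21.7 to 2161 CPM in WT stress. Their part in the receptor values was not tested. This comparison and the others share groups, so their values are not independent of each other.

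Markers of vessels and blood also stood higher under stress. In bulk tissue, more cells of a type and more RNA per cell cannot be told apart. All 15 endothelial markers had a log2 fold change above 0 with stress in WT mice, with a median of 0.25 and none past the threshold. Their summed level was 434 to 503 CPM in WT stress and 358 to 407 CPM in WT controls, without overlap. In KO mice 14 of 15 lay above 0, with sums of 377 to 534 CPM in KO stress and 366 to 424 CPM in KO controls. Of 7 genes of activated endothelium 6 were tested, and 3 rose in WT mice, namely Lcn2, Lrg1 and Vwf (0.135% of all genes rose). Vwf had 57.6 ± 17.3 CPM in WT stress and 23.4 ± 4.81 CPM in WT controls. In KO mice all 6 lay above 0 and 0 passed. Of 10 pericyte and smooth muscle markers 1, Kcnj8, rose in the average over genotypes. Of 14 monocyte and neutrophil markers 11 were tested and all 11 lay above 0 in WT mice, where 3 rose, namely S100a8, S100a9 and Retnlg. Their sum was 21.3 to 88.1 CPM in WT stress and 16.5 to 21.6 CPM in WT controls, and in KO mice 21.6 to 52.0 CPM in stress and 16.3 to 20.9 CPM in controls. No marker of these lists was at 0 throughout a group. The microglia sum was 467 to 693 CPM in WT stress and 417 to 551 CPM in WT controls, and in KO mice 453 to 624.6 CPM in stress and 419 to 510 CPM in controls. The part of these cells in the levels of the receptors was not tested.

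Red blood cell markers moved with stress as well. All 5 tested of 7 lay above 0 in WT mice, where 49.5% of all genes did, and Alas2 and Hba-a2 rose. The sum was 105 to 150 CPM in WT stress and 69.9 to 86.5 CPM in WT controls. In KO mice the sum was 96.0 to 134 CPM in stress and 69.4 to 90.6 CPM in controls, with Alas2 the 1 that rose. Hbb-bt was at 0 in every group, and near-identical globin copies make these counts uncertain. Beside the Il4ra difference between control groups stand regional markers. The 12 thalamus and habenula markers had log2 fold changes above 0 in KO controls against WT controls, with a median of 0.61, and sums of 149 to 638 CPM in KO controls and 144 to 515 CPM in WT controls. These sums followed the library set: set 2 had 149 to 249.6 CPM in KO controls and 144 to 165 CPM in WT controls, and set 1 had 297 to 638 CPM in KO controls and 348 to 515 CPM in WT controls. The 12 hippocampal neuron markers lay below 0, with a median of −0.36 and sums of 4865 to 8359 CPM in KO controls and 5150 to 9022 CPM in WT controls. Within set 2 the KO controls had 8217 and 8359 CPM and the WT controls 8064 to 9022 CPM, and within set 1 the KO controls had 4865 to 5851 CPM and the WT controls 5150 to 5374 CPM. Set 1 holds 4 of 6 KO controls and 3 of 7 WT controls, so the shift over all controls mixes genotype with set. Their part in the Il4ra level was not tested either.

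The ligands of these receptors were scarce. Of 14 listed ligands 5 had enough counts to be tested, and 0 of them passed in any comparison. Il6 had 0 counts over the 6 WT stress libraries, 8 over the 7 WT control libraries, 4 over KO stress and 2 over KO controls. A library of this depth puts 3 counts at 0.0853 to 0.117 CPM, a limit for counting error only. Il10 had 5 counts, all in KO controls, and Tnf had 6, 3, 1 and 12 counts over WT stress, WT controls, KO stress and KO controls. Osm stood at 0.147 ± 0.0931 CPM in WT stress, 0.121 ± 0.117 in WT controls, 0.153 ± 0.0589 in KO stress and 0.142 ± 0.111 in KO controls. Differences of Il6, Il10, Tnf or Osm were not detectable at this depth. Lif, the ligand of the Lifr chain, stood at 1.04 ± 0.434 CPM in WT stress, 1.24 ± 0.438 in WT controls, 0.596 ± 0.305 in KO stress and 0.793 ± 0.226 in KO controls. Its log2 fold change was −0.81 ± 0.37 in KO stress against WT stress (adjusted p = 0.798 in edgeR).

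Partner receptors, kinases and inhibitors gave no calls. None of 9 partner receptors, 9 other JAK kinases and STATs, 10 inhibitors and 10 genes of the tumour necrosis factor receptor 1 path passed in edgeR in any of the 6 comparisons. Il2rg, the common gamma chain that pairs with Il4ra, had 2.02 ± 0.516 CPM in WT stress and 1.01 ± 0.313 CPM in WT controls, and an average log2 fold change of 0.99 ± 0.23 (adjusted p = 0.0684). Jak3, the kinase bound to that chain, averaged 0.37 ± 0.089 (adjusted p = 0.0937), and Csf3r, the granulocyte colony-stimulating factor receptor, 0.46 ± 0.11 (adjusted p = 0.0953). Stat4 ran the other way, at 0.273 ± 0.202 CPM in KO stress and 0.702 ± 0.402 CPM in KO controls (log2 fold change −1.36 ± 0.56, adjusted p = 0.988), with an average of −0.82 ± 0.37 (adjusted p = 0.777). These 4 genes were named after their values were seen, and Csf3r is also one of the myeloid markers.

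Of 20 genes known as STAT3 targets 18 were tested, and 2 rose in WT mice, Lcn2 and Lrg1. Lcn2, which encodes the acute-phase protein lipocalin 2, ran from 4.95 through 7.80 to 19.9 CPM in WT stress, and from 0 through 0.286 to 0.754 CPM in WT controls (log2 fold change 5.15 ± 0.75, adjusted p = 0.00180). Lrg1, a secreted glycoprotein of inflamed endothelium, ran from 7.38 through 10.4 to 13.7 CPM in WT stress, and from 1.57 through 2.96 to 4.23 CPM in WT controls (1.91 ± 0.26, adjusted p = 0.000813). In both genes the WT groups did not overlap, as in 0.221% of all genes in that direction. The 18 had a median of 0.25 with 16 above 0 in WT mice, and 0.12 with 15 above 0 in KO mice, where 0 passed. Of all genes, 49.5% lay above 0 in WT mice and 51.4% in KO mice. In KO mice Lcn2 ran from 1.21 through 1.38 to 13.7 CPM in stress, and from 0 through 0.308 to 0.945 CPM in controls (log2 fold change 3.60 ± 0.76, adjusted p = 0.331 in edgeR). These groups did not overlap either, as in 0.233% of all genes in that direction, but the stress median lay close to the lowest stress library. Lrg1 had 1.12 ± 0.28 in KO mice (adjusted p = 0.890). Lcn2 and Lrg1 both passed in the average (4.37 ± 0.54 and 1.51 ± 0.19, adjusted p = 0.000189 each) and neither passed in the interaction. The remainder ran from −0.18 for Myc to 1.52 for Bcl3 in WT mice (Bcl3 adjusted p = 0.290). Gfap, Vim and Serpina3n, known from reactive astrocytes, had 0.061, 0.27 and 0.099. Lcn2 and Lrg1 also stand in the list of activated endothelium.

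Likeness of pattern was measured as Pearson's r of log2 CPM after subtracting the mean of each library set, over 24 libraries and 14275 other genes. The libraries share depth and dissection, and r describes likeness only. Osmr was most like Tmem252 (r = 0.92), Lcn2 (0.84) and Lrg1 (0.83). After the group means were also subtracted these were 0.78, 0.68 and 0.41, so part of the likeness lay within groups. Lcn2 and Lrg1 had r of 0.95 and 0.92 with Osmr in set 2, and 0.54 and 0.49 in set 1. Tnfrsf1a was most like Igfbp7 (0.85), Anxa2 (0.81) and Ifitm3 (0.80), and Il4ra like Ier3 (0.83), Rtbdn (0.79) and Arhgef15 (0.75).

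The signalling core kept other company. Il6st was most like Prkar2a (0.94), Ptpn11 (0.94) and Ptch1 (0.93), with values from 0.918 to 0.931 after subtracting group means, and Ptpn11 encodes the phosphatase SHP2 that binds gp130. Jak1 was most like Nbea (0.90), Erc2 (0.89) and Pgm2l1 (0.89), Lifr like Cadps (0.87), Traf3 (0.86) and Osbpl6 (0.86), and Stat3 like Maob (0.85), 1810041L15Rik (0.84) and Vwa5b1 (0.83). Traf3 and Osbpl6 had r of 0.94 and 0.92 with Lifr in set 1, and 0.53 and 0.52 in set 2. Socs3 was most like Sbno2 (0.83), Smad6 (0.77) and Unc93b1 (0.76), Il6ra like Galnt15 (0.76), Piezo1 (0.75) and Mcc (0.75), and Il10ra like Ncf1 (0.72), C2 (0.69) and Slc7a7 (0.69). For Il10ra C2 and Slc7a7 rested on set 2, with r of 0.91 for Slc7a7 there and 0.074 in set 1, and 0.83 and 0.27 for C2. Among the members themselves, 34 of the 45 pairs had r above 0, with a median of 0.24. The highest was Il6st with Il6ra (0.68), then Tnfrsf1a with Socs3 (0.68) and Il4ra with Tnfrsf1a (0.67). The lowest were Jak1 with Tnfrsf1a (−0.64), with Socs3 (−0.57) and with Il4ra (−0.54). Osmr with Tnfrsf1a had 0.49, and 0.052 once group means were subtracted.

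Positions in mm10 (GENCODE M21) place Lifr (ENSMUSG00000054263.12) on chromosome 15 from 7090614 to 7197489 and Osmr (ENSMUSG00000022146.12) near it, from 6813577 to 6874969. Stat3 (ENSMUSG00000004040.16) lies on chromosome 11 from 100885098 to 100939540, where 72 bases of an exon are shared with Stat5a on the opposite strand, and Socs3 (ENSMUSG00000053113.3) from 117966079 to 117970047. Tnfrsf1a (ENSMUSG00000030341.17) lies on chromosome 6 from 125349362 to 125362484 and Il4ra (ENSMUSG00000030748.9) on chromosome 7 from 125552120 to 125579474. Il6st, Il6ra, Il10ra and Jak1 lie on chromosomes 13, 3, 9 and 4. All 10 are annotated as protein coding there, though the annotation used for counting is not given.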

How the data were processed

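The authors deposited a table of raw counts, whole numbers by gene symbol. STAR, DESeq2 and mm10 are listed in the submitters' processing notes. Which program counted reads, with what annotation and strand setting, is not given in the sources used here. Between 70.9% and 75.8% of the counts from 1 to 10 in a library were even, as when both mates of a pair are counted. The authors' normalized table and their table of 1 unnamed comparison were not used.

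Groups and replicate numbers came from the sample titles. The counts entered edgeR 4.0.16 in R 4.3.3 (quasi-likelihood F test, robust fit, TMM factors, filterByExpr with a minimum count of 10), in 1 fit of 4 group means over 24 libraries. Contrasts gave 6 comparisons, and Benjamini-Hochberg adjustment ran over all 16313 genes with a threshold of 0.05. SEs are approximate and were taken from each fold change and its F value. Alternatives used DESeq2 1.42.0, limma 3.58.1, other filters and factors, library sets and left-out libraries. The test was checked on simulated counts. Every pair of libraries differed by more than sampling noise (smallest mean chi-square per gene 5.79).

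RPKM used merged exon lengths of GENCODE M21. The members and lists were chosen with earlier results of these data known. The rule for named genes takes all members, list genes past the threshold, 5 ligands and the 3 genes most like each member among those with a mean of at least 1 CPM, by log2(CPM + 0.5). Other genes are named after their values were seen.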

Additional observations from a re-analysis of the deposited data

Results flagged for a closer look

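Of 40 sets of values (10 genes in 4 groups), 2 held a library far from the rest, and chance marks about 5 in 100 such sets. Lifr in WT stress replicate 2 had 43.0 CPM, while the next highest WT stress library had 32.8 CPM. Stat3 in WT stress replicate 5 had 61.4 CPM, and the next highest had 48.2 CPM. WT stress replicate 5 had a thalamic marker sum of 866 CPM, among 115 to 911 CPM over all libraries, and its part in the Stat3 level was not tested.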

How the results depend on the processing

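Of the 10 members, 0 passed with stress in WT mice and 1 in the average over genotypes. In WT mice the count was 1 with DESeq2 (Osmr), and 0 to 1 with a library left out. In the average it was 2 with DESeq2, 0 to 2 with a library left out, and 0 with no filter, with the library set as a term, in set 1 or set 2 alone, and without the 3 stress libraries with the most thalamic transcripts (other libraries hold up to 638 CPM of them); the cause was not tested. In the remaining comparisons no alternative called a member. Of 2080 alternative log2 fold changes, 97 differed in sign from the reported one. None of these was called, 7 belonged to a reported value over 0.2 in size, and all 7 arose in set 1 alone. Counts over all genes moved too: DESeq2 called 61 genes in WT mice, where edgeR called 22, 12 in KO mice (edgeR 1) and 77 in the average (edgeR 35), and 4 in the interaction, 8 in KO against WT controls and 3 in KO against WT stress (edgeR 0 each). Set 2 alone gave 69 in the average and set 1 alone gave 0. Same-numbered libraries often shared the library set as well, since replicates 1 and 2 of every group were in set 1 and replicates from 5 on in set 2. Correlations of their deviations ran from −0.36 to 0.58, with 12 of 22 pairs over 0.1. In 4 of the 22 pairs the first library was most like the one with its own number. Whether equal numbers mark a pairing is not stated. With the replicate block the edgeR calls were 24, 1 and 36 over all genes in WT mice, KO mice and the average, and 0, 0 and 1 among the members. Depth limits the low members: Osmr rests on 593 to 1077 counts per group, and fewer fragments if mates were counted apart.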
